A study of Mus musculus with 2 samples.

Results

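Naive and memory T cell regulators are the transcription factors, receptors and other genes whose levels set resting, memory and effector CD4 T cells apart. The 9 genes Tcf7, Lef1, Il7r, Satb1, Id2, Id3, Cd44, Ikzf1 and Dapl1 were chosen for that role, and their probe sets were those to which the platform annotation gives the symbol alone. Of the 9 genes, 8 were named by 20 probe sets, out of 18193 genes named on the array. Tcf7 was not analysed here. The genes were measured in T helper 2 (Th2) cells of Ecm1 knockout (KO) and wild-type (WT) mice, both C57BL/6 and described as female and 6 weeks old. Ecm1 encodes a secreted extracellular matrix protein, and the series compares Th2 cells with and without it. Splenic CD4 cells, which the series text calls naive although the isolation used CD4 only, were cultured for 4 days with anti-CD3 at 3 µg/ml, anti-CD28 at 2 µg/ml, IL-4 (given as 10, with a garbled unit), and anti-IFN-γ and anti-IL-12 at 10 µg/ml each. There was 1 array per group, and how many mice stand behind each is not stated in the labels.

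In textbook terms, naive CD4 T cells keep high Lef1, Il7r, Satb1 and Dapl1 and low surface CD44. LEF1 and its relative TCF1 bind DNA through an HMG box and work with β-catenin and Groucho/TLE corepressors. The IL-7 receptor α chain, encoded by Il7r, pairs with the common γ chain and signals through JAK1, JAK3 and STAT5 to keep resting T cells alive, and its transcript drops when T cells are activated. ID2 and ID3 lack a DNA-binding region and hold E proteins off DNA, with Id2 typical of effector cells and Id3 of naive and long-lived memory cells. CD44 is a hyaluronan receptor that activated and memory T cells carry at high level, as do many other leukocytes.

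With 1 array per group, the differences below carry neither a test nor an error between animals and describe these 2 arrays. Differences are log2(KO signal) minus log2(WT signal), centred on the median of all measured probe sets, those that reach the floor in KO and in WT. The floor is the median signal of each array, 65.5 in KO and 69.2 in WT. Each gene is given by its brightest probe set unless others are named, and counts use differences of 2-fold or more. The 2 brightest probe sets of a gene, compared over 4657 genes, gave a technical SD of 0.36 (log2). Differences between animals, cultures and arrays that both probe sets share have no part in it, while those that reach only 1 of them do.

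Several measurements of the whole arrays touch the genes described here. Ecm1 read 19.3 on the KO array and 29114.7 on the WT array, which matches the labels, although the labels do not say whether its probe set lies in the deleted part. The Y-linked Eif2s3y read 2214.4 in KO and 25.0 in WT, which goes against the label of female mice for the KO array. The brightest Xist probe set read 8715.3 in KO and 19739.9 in WT, lower in KO but far above the floor. The KO array thus held a Y-linked transcript beside Xist. The sample descriptions name liver, but the 5 hepatocyte genes with a probe set were all below the floor in KO and in WT. T cell markers were abundant on both arrays and lower in KO: all 13 measured of 15 listed lay below 0, between -1.47 (Cd6) and -0.52 (Cd3d), with a median of -0.93, and their summed signal was 71710.8 in KO against 134683.1 in WT. Cd4 itself read 932.2 against 3022.3. Markers of other cells were higher in KO: all 9 measured B cell markers (summed over the list 34850.5 against 17256.2, with Pax5 below the floor on both arrays), all 7 plasma cell markers measured on both arrays (109963.8 against 46337.2) and all 7 macrophage markers measured on both arrays (6932.0 against 1354.4). A further 5 macrophage markers reached the floor in KO only, and Itgam on neither array. Both CD8 markers and both natural killer markers measured in KO and WT were lower in KO by 2-fold or more. In such bulk samples fewer T cells and less of a transcript per T cell cannot be told apart, and the part of these shifts in the values below was not tested.

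Of the 8 genes measured, 3 (Lef1, Il7r and Dapl1) were lower in KO by 2-fold or more, 1 (Cd44) was higher by as much, and 4 (Satb1, Ikzf1, Id2 and Id3) lay within 2-fold. Over all 10144 measured genes, the shares past 2-fold were 4.45% lower and 7.15% higher. The median difference of the 8 genes was -0.50, against 0.04 for all genes. By probe set, 18 of the 20 were measured in KO and WT, with 6 past 2-fold on the lower side and 3 on the higher, where the shares among all 17951 named probe sets were 4.68% and 7.22%. The 3 lower genes and Ikzf1 lay inside the range of the T cell markers, whereas Satb1, Id2, Id3 and Cd44 lay above all 13 of those markers. Most measured genes lay above those markers too: 73.3% of all were higher than Id2, 68.0% higher than Satb1 and 90.2% higher than Ikzf1.

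**Figure D1:**
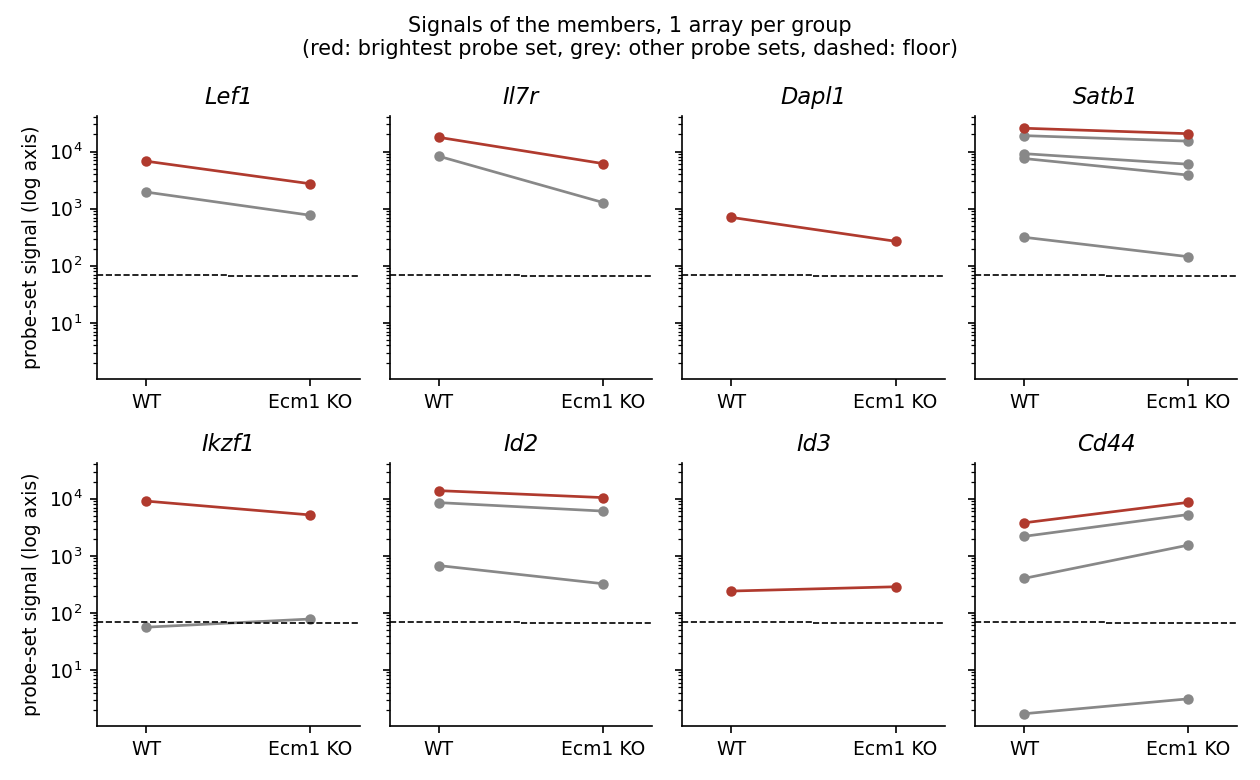
Signals (log axis) of every probe set of the 8 genes on the WT and KO arrays, 1 array per group. Red marks the brightest probe set, grey the others and the dashed lines the floor; lines slope down from WT to KO for Lef1, Il7r, Dapl1, Satb1 and Id2 and up for Cd44.

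The proximal promoters of the 4 genes past 2-fold are shown because 3 of them were lower together and Cd44 differed the other way. They are the RefSeq windows of GRCm38.p6 nearest each gene's 5′ end, cut where the annotated gene begins, and are written 5′ to 3′ on the gene's strand. Capitals mark matches, on either strand, to the letters CTTTGA (TCF/LEF factors), GTAAACA (FOXO factors), TTCNNNGAA (STAT factors), CCGGAA (ETS factors), AGATAA (factors of the GATA family), TGGGAA (Ikaros) or GGGCGG (KLF factors). Lef1 lies at chr3:131110047-131110296 (+ strand), Il7r at chr15:9529942-9530126 (- strand), Dapl1 at chr2:59484403-59484652 (+ strand) and Cd44 at chr2:102901670-102901915 (- strand).
Lef1: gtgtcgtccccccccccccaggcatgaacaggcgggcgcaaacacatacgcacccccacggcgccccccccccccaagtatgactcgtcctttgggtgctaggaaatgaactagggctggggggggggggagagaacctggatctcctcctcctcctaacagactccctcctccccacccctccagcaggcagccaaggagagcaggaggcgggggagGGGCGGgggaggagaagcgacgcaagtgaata
Il7r: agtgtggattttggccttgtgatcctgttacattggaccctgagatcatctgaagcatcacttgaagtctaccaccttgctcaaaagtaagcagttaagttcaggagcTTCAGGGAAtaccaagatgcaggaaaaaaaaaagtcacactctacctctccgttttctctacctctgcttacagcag
Dapl1: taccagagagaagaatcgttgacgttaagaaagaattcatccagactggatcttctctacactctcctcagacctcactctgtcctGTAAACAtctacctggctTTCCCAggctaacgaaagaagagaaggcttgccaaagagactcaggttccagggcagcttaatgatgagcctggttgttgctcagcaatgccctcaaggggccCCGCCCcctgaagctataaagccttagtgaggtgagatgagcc
Cd44: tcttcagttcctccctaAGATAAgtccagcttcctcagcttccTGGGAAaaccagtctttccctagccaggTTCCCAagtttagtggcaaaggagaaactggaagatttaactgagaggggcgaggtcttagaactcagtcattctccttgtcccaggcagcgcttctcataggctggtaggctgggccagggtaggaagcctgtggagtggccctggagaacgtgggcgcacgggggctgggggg
The 3 lower genes held no match in common in these stretches. Lef1 had 1 KLF match, Il7r 1 STAT match, and Dapl1 1 match each to FOXO, Ikaros and KLF, while Cd44 had 1 GATA and 2 Ikaros matches. Of all 32851 promoter windows of 300 bases, 35.7% held the KLF letters, 8.3% the STAT letters and 3.6% the FOXO letters. The Ikaros letters were in 25.6% of them and the GATA letters in 11.2%. These shares count whole windows, whereas the stretches shown are shorter. The part cut off held 1 KLF match in Cd44 and 1 Ikaros match in Lef1. The TCF/LEF letters, found in 16.0% of windows, and the ETS letters, found in 14.9%, matched none of the 4 stretches. The E-box CANNTG, the letters E proteins bind, was searched too but is not capitalised, being present in 72.3% of windows. It lay in the whole windows of all 3 lower genes, for Dapl1 only in the part cut off. The Lef1 window was rich in G and C at 67.3%, and the Il7r window held 45.7%, against a median of 52.7% over all windows. These matches describe letters and are neither binding sites nor causes.

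Lef1, which encodes the HMG-box partner of TCF1, read 2732.4 in KO and 6793.6 in WT with its brightest probe set and 766.1 against 1953.0 with the other. Both KO signals were thus near the same share of WT, 40.2% and 39.2%. The centred differences were -1.21 and -1.25, a gap of 0.04 between probe sets. Of all measured genes, 2.45% had a lower difference than Lef1.

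Il7r, the gene of the IL-7 receptor α chain, had the lowest value of the 8 genes. Its brightest probe set read 6173.7 in KO and 17809.5 in WT, a difference of -1.43 or 2.69-fold lower. The other read 1282.5 against 8299.6, a difference of -2.59 or 6.03-fold lower. The probe sets give the same direction and differ in size by 1.17, a gap wider than in 96.5% of the genes with 2 measured probe sets, so the size of the Il7r difference is uncertain. The dimmer probe set lay below all 13 T cell markers and the brighter below 12 of them.

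Dapl1, a transcript typical of naive and memory-like T cells whose function is little known, has 1 probe set. It read 268.3 in KO and 703.5 in WT, a difference of -1.29, and 1.97% of all measured genes had a lower one. With the floor raised to the 70th percentile of each array the KO signal fell below it, and the difference became a bound of -1.25 or lower.

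Satb1 encodes a chromatin organiser that gathers distant gene regions in T cells. Its 5 probe sets were all lower in KO, by unequal amounts. The brightest pair read 20653.4 against 25742.0 and 15284.1 against 19092.8, and the differences were -0.21 and -0.22. The next pair in brightness read 6019.9 against 9221.9 and 3884.7 against 7582.2, with differences of -0.51 and -0.86. The dimmest read 144.1 against 315.5, a difference of -1.03, just past 2-fold. The gene's value therefore depends on the probe set, with KO signals running from 80.2% of WT down to 45.7%.

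Ikzf1 encodes Ikaros, a zinc finger repressor and activator of lymphocyte genes. Its brightest probe set read 5197.4 in KO and 9088.8 in WT, a difference of -0.70. The other read 77.9 in KO, near the floor, and 56.0 in WT, below it, which gives only a bound of 0.27 or higher. The probe sets thus go opposite ways, the second with a WT signal that was not measured above the floor.

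Id2, the inhibitor of E proteins found in effector T cells, was slightly lower in KO in its brighter probe sets, which read 10474.9 against 13866.6 and 6077.4 against 8552.6, with differences of -0.30 and -0.39. The third read 323.6 against 673.2, a difference of -0.95. Id3, the inhibitor found in naive and memory T cells, went the other way by less than the technical SD. Its 1 probe set read 286.2 in KO and 240.8 in WT, a difference of 0.35. Its WT signal was below the higher floor of the 70th percentile, and the bound of -0.03 then gave no direction.

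Cd44, the hyaluronan receptor gene, was the single gene of the 8 that was higher in KO by 2-fold or more. Its brightest probe set read 8636.9 in KO and 3780.9 in WT, and the next 5282.3 against 2189.4, with differences of 1.29 and 1.37. The third read 1535.1 against 401.2, a difference of 2.04 or 4.11-fold higher. The dimmest read 3.1 and 1.7, below the floor in KO and WT, and has no fold. Of all measured genes, 3.93% had a higher difference than Cd44, and all 3 of its measured probe sets were past 2-fold. B cell, plasma cell and macrophage markers were higher on the same array, with medians of 0.998, 2.04 and 1.12, and their part in the Cd44 difference was not tested.

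**Figure D2:**
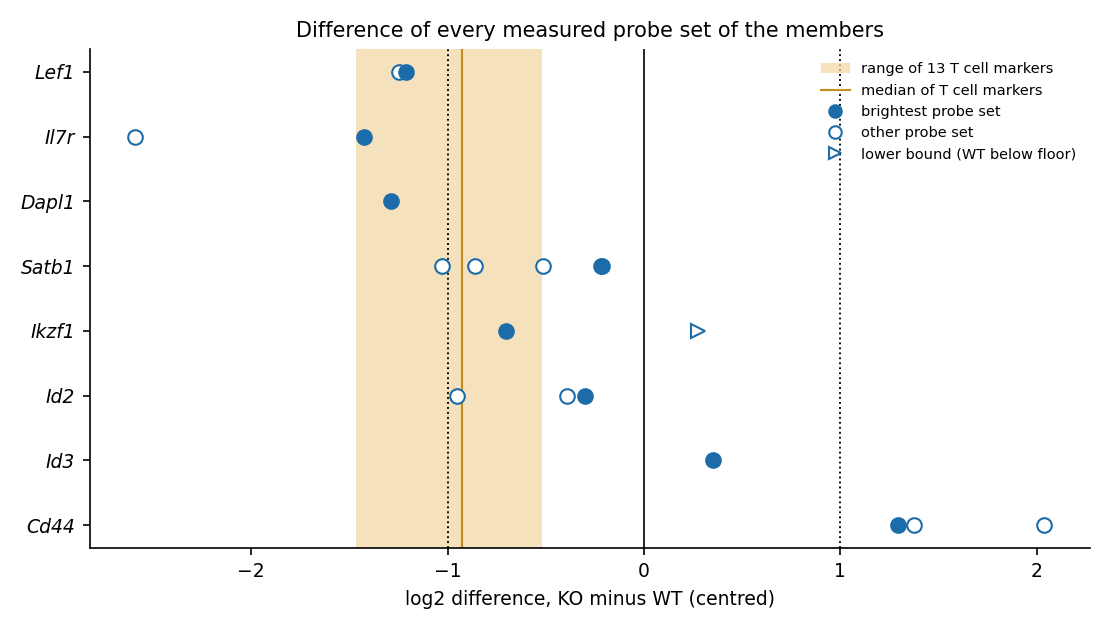
Centred log2 differences (KO minus WT) of each measured probe set of the 8 genes, with filled circles for the brightest probe set, open circles for others and a triangle for a lower bound. The shaded band is the range of 13 T cell markers (-1.47 to -0.52, median -0.93) and dotted lines mark 2-fold. The brightest probe sets of Lef1, Il7r, Dapl1 and Ikzf1 lie in the band and those of Satb1, Id2, Id3 and Cd44 above it, where most measured genes lie too.

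Set against the T cell markers instead of all probe sets, the order of the genes stayed and the zero moved. Centring on the median of those markers put Lef1 at -0.28, Dapl1 at -0.36 and Il7r at -0.50, all within 2-fold. On that scale Ikzf1 was at 0.23, Id2 at 0.63 and Satb1 at 0.71, so these 3 genes change sign between the scales. Id3 was at 1.28 and Cd44 at 2.22, both past 2-fold above the T cell markers. That scale also put 47.9% of all measured genes past 2-fold on the higher side and 0.404% on the lower, which is the background for these counts of 2 higher and 0 lower. The median of all measured genes was 0.97 on that scale, which is the background for list medians given relative to T cell markers.

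**Figure D3:**
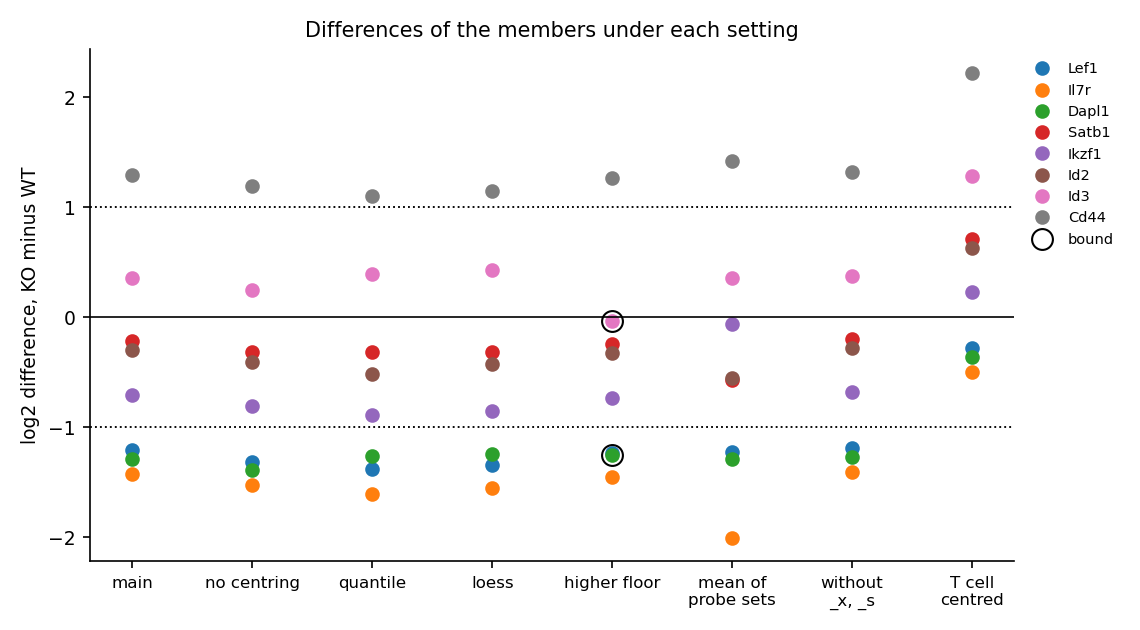
Log2 differences (KO minus WT) of the 8 genes under the main setting and 7 others, with a ring round a value that is only a bound and dotted lines at 2-fold; the averages of Ikzf1 and Cd44 probe sets take in signals below the floor and are no measured differences. Il7r, Dapl1 and Lef1 stay past 2-fold lower and Cd44 past 2-fold higher except that centring on T cell markers moves the first 3 to between -0.50 and -0.28.

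Probe sets of the same gene did not always agree in size, and in each of the 5 genes with more than 1 measured probe set the dimmest gave the largest difference. Between the 2 brightest probe sets the gap was 0.00 for Satb1, 0.04 for Lef1, 0.08 for Cd44 and 0.09 for Id2, all far below the technical SD, and 1.17 for Il7r. The SD between the measured probe sets was 0.03 for Lef1, 0.35 for Id2, 0.37 for Satb1, 0.41 for Cd44 and 0.82 for Il7r. No test was run on this order.

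**Figure D4:**
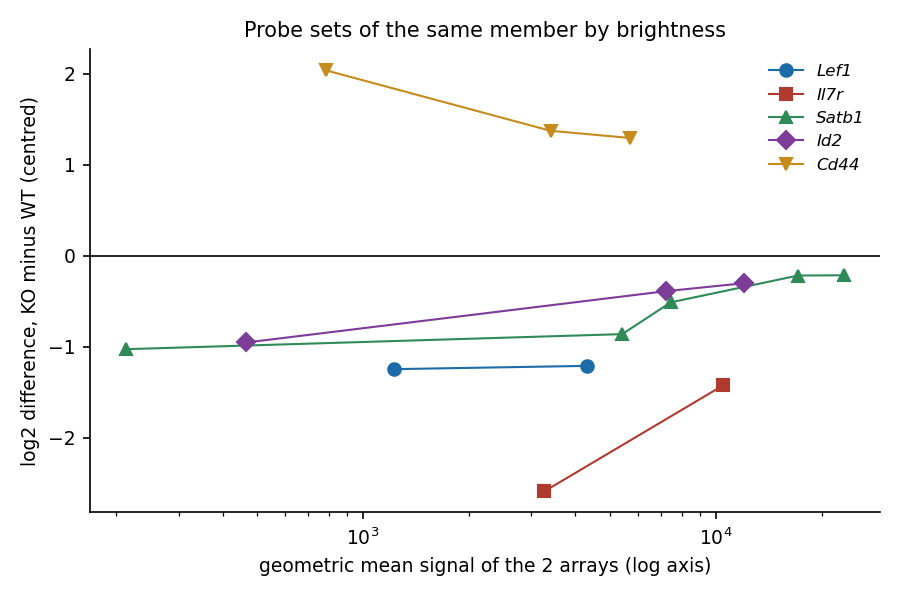
Centred log2 difference (KO minus WT) against the geometric mean signal of the 2 arrays (log axis) for each measured probe set of Lef1, Il7r, Satb1, Id2 and Cd44, with lines joining probe sets of a gene. Towards dimmer probe sets, Satb1 goes from -0.21 to -1.03, Id2 from -0.30 to -0.95, Il7r from -1.43 to -2.59 and Cd44 from 1.29 to 2.04, while Lef1 is at -1.21 and -1.25.

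Beside Lef1, Il7r and Dapl1, other transcripts of the naive and quiescent state were lower in KO. All 20 measured of 22 listed lay below 0, with 11 past 2-fold and a median of -1.16. Over all measured genes the median was 0.04, and the shares past 2-fold were 4.45% lower and 7.15% higher, here and for the lists below. The lowest were the costimulatory receptor Cd27 (660.0 against 4087.7), the transcription factor Klf2 (1350.2 against 7282.1) and the egress receptor S1pr1 (540.7 against 2553.1), at -2.53, -2.33 and -2.14. Each of these differences was lower than that of any of the 8 genes by its brightest probe set. Relative to the T cell markers, with which it shares Cd5, the median of this list was -0.23.

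Effector and memory T cell genes were mixed. Of 22 measured of 24 listed, 5 were past 2-fold on the lower side, 2 on the higher and 15 on neither (all genes: 4.45% lower and 7.15% higher). Fasl reached the floor in WT only (64.9 in KO against 164.1), a bound of -1.22 or lower, with -0.36 or lower in its other probe set. The median of the 22 was -0.26, which became 0.67 relative to T cell markers. The chemokine receptor Ccr2 was at -2.44 and the large scaffold protein gene Ahnak at -1.71, and their dimmer probe sets measured in KO and WT gave smaller differences of the same sign. Irf4, a transcription factor of activated T cells and of plasma cells, was at 2.14, reading 7749.1 against 1891.7, with 0.95 in its other probe set. Cd44 therefore stood on the same side as Irf4 and opposite to Ccr2 and Ahnak.

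Partners of LEF1 lay mostly within 2-fold, as did most measured genes. Of 17 measured members of the TCF/LEF and Wnt list, 1 was past 2-fold, on the lower side (all genes: 4.45% lower and 7.15% higher). The list median was -0.32, or 0.61 relative to T cell markers. That 1 gene was Axin2, a feedback inhibitor and common readout of β-catenin with TCF/LEF, at 320.2 in KO against 836.0 in WT (-1.28). The corepressor gene Tle2 was at -0.90, near the floor in KO (74.0 against 148.1), and the progenitor factor gene Myb at 0.81.

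IL-7 receptor signalling genes leaned the same way as Il7r and by less, each taken by its brightest probe set. Of 14 measured, 13 lay below 0 and 2 of these were past 2-fold (all genes: 4.45% lower). The list median was -0.47, or 0.46 relative to T cell markers. Those 2 were Jak3, the kinase of the common γ chain, which read 1170.6 against 2610.4 (-1.05), and Stat5b, which read 1702.8 against 3800.7 (-1.06) with its brightest probe set, while its other one was at 0.17. Runx1, a transcription factor of T cells, was at -0.91, with -1.13 to -0.45 in its dimmer probe sets. Bcl2 was at -0.56, but its dimmer probe sets ran from -1.59 to -0.45. The common γ chain gene Il2rg was not analysed here.

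The Id and E protein list holds the E proteins that ID2 and ID3 restrain and related factors. Its median was 0.76 over 5 measured genes, or 1.69 relative to T cell markers. On that second scale all 5 lay above 0, and the median of all measured genes was 0.97. Tcf4, which encodes E2-2 and is abundant in B-lineage and plasmacytoid dendritic cells, read 2899.9 in KO and 735.6 in WT, a difference of 2.08, with 2.02 to 2.52 in the rest of those measured. Lyl1, a related helix-loop-helix factor gene, read 1011.4 against 497.5 (1.13), and Tcf3, which encodes E2A, 2322.9 against 1475.4 (0.76). Tcf12, which encodes HEB, was at -0.31 on the scale of all probe sets, with 1 of its dimmer probe sets at 0.52. Of the 5 measured, 2 were thus past 2-fold, both on the higher side, against 7.15% of all measured genes. B cell markers were higher on the same array, and their part in this was not tested.

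Ikaros relatives and partners and the chromatin organisers listed with Satb1 lay within 2-fold in all 17 and all 9 measured genes by their brightest probe sets. Most measured genes did so too, since 4.45% of all were past 2-fold lower and 7.15% higher. Ikzf3, which encodes Aiolos, was at -0.85, close to the brightest Ikzf1 probe set, with -1.43 and -0.76 in its dimmer probe sets. Rbbp7 and Ikzf4 were at 0.69 and 0.68. Bcl11b, a T cell identity factor, read 5294.4 against 10925.3 (-0.94), and its 3 dimmer probe sets were past 2-fold, at -1.35 to -1.05, whereas the cohesin subunits Rad21 and Smc1a were at 0.38 and 0.34. The list medians were -0.06 for the Ikaros list and 0.15 for the organisers, or 0.87 and 1.08 relative to T cell markers.

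By their brightest probe sets, no ligand or cytoskeletal partner of CD44 measured in KO and WT was higher in KO by 2-fold or more. Over all measured genes that share was 7.15%, so none among 7 is near it. The hyaluronan synthase gene Has1 reached the floor in KO only (114.9 against 30.8, a bound of 0.83 or higher), and a dimmer probe set of the linker gene Ezr (244.8 against 33.3) had a bound of 1.93 or higher, although its brightest was at 0.07. Of the 7 measured in KO and WT, 1 was past 2-fold, on the lower side (all genes: 4.45%). The list median was 0.08, which was -0.02 without centring and 1.01 relative to T cell markers. The lower gene was the integrin Itga4 (649.0 against 1493.4, -1.10), whose next probe set was at 0.25. Cd74, an invariant chain abundant in B cells and macrophages that also binds CD44, was at 0.87, and the hyaluronan receptor gene Hmmr, a gene of dividing cells, at 0.77.

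**Figure D5:**
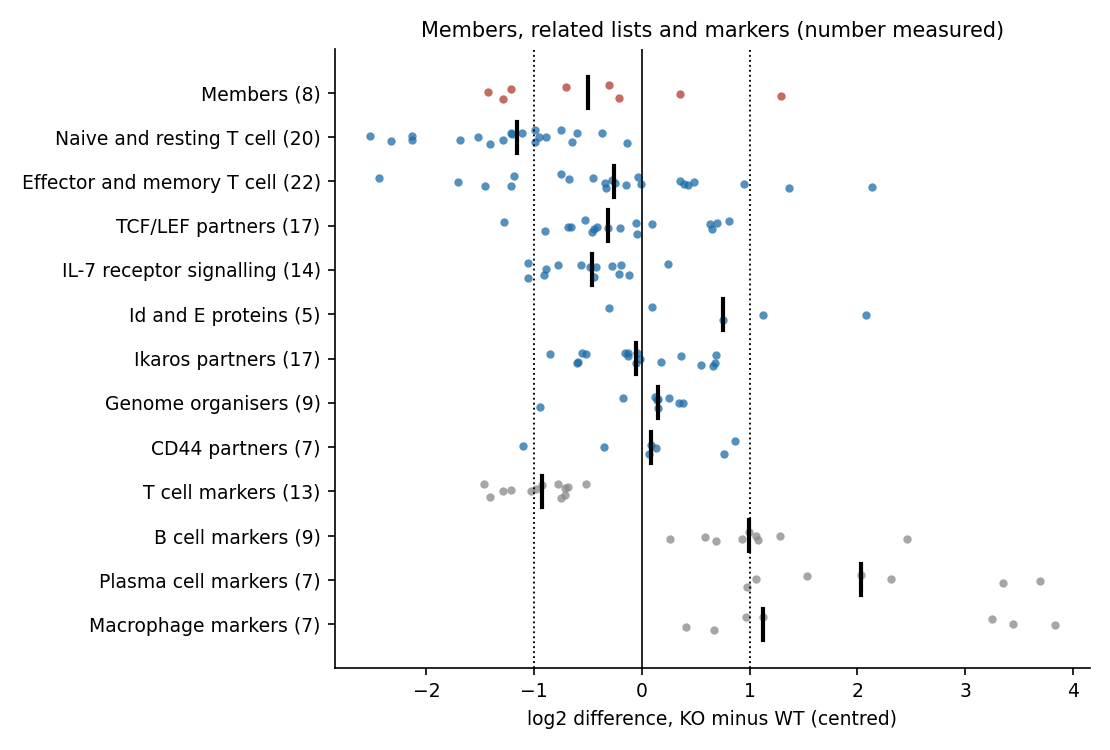
Centred log2 differences (KO minus WT) of the 8 genes (red), 8 related gene lists (blue) and 4 lists of cell type markers (grey), 1 point per gene measured on both arrays. Thick bars are medians and dotted lines mark 2-fold; the medians run from -1.16 for naive and resting T cell genes to 2.04 for plasma cell markers, with the 8 genes at -0.50.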

How the data were processed

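Linear intensities, 1 per probe set and array, were deposited for 45101 probe sets on 2 Affymetrix arrays, labelled from 3 µg of total RNA by the one-cycle assay, per the labels' protocols. The summarisation method is not stated in the labels, and neither is a genome build. The mean of the central 96% of values was 499.8 on both arrays, which points to a global scaling to that mean. Under such a scaling a rise of transcripts within that 96% lowers others, while the very brightest values do not enter the mean. The size of this effect was not tested. Gene names came from the platform annotation (34945 with 1 symbol, 932 with several, 9160 with none, 64 controls), and all 9 symbols were found in the RefSeq gene table.

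The log2 difference was centred by its median over the 20834 measured probe sets (-0.10). Where 1 array was below the floor a bound is given, and list medians use genes measured on both. Alternatives were no centring, quantile normalization, loess (span 0.3), centring on T cell markers, a floor at the 70th percentile, no floor, probe sets averaged, and no _x_at or _s_at probe sets. The procedure was tested on simulated data. The number of arrays limits the precision, and no test between groups was possible. The genes and the 8 related and 9 marker lists were chosen with earlier results of these data known. The text names every probe set of the 8 genes, up to 3 genes with the largest difference of each related list, while marker lists, planned by their 3 brightest genes, are given by counts and sums. Cd3d, Cd4, Cd5, Cd6, Xist, Eif2s3y, Tcf12, Bcl2, Has1, Ezr, Fasl, Pax5 and Itgam were named after their values were seen. Planned protein comparisons were not made. Python 3.11.15, pandas 2.3.3, numpy 2.4.6, statsmodels 0.14.6 and matplotlib 3.10.9 were used.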

Additional observations from a re-analysis of the deposited data

How the results depend on the processing

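No paired analysis was possible because only 1 array per group was made. The count of 3 genes at least 2-fold lower (Lef1, Il7r and Dapl1) and 1 higher (Cd44) was the same under 6 of the 8 alternatives. With the floor at the 70th percentile, Dapl1 and Id3 were left with bounds, and 2 of 6 measured genes were lower. Centred on T cell markers, 0 genes were lower and 2 higher (Id3 and Cd44). Of the related genes, 20 of 111 were lower and 4 higher (all genes: 4.45% and 7.15%). These became 5 and 34 when centred on T cell markers (0.404% and 47.9% of all genes), and with no floor 23 and 8 of 123 (12.5% and 15.7%). The move of the zero is what changes the counts under the T cell centring. With no floor the zero stayed and more genes were counted. Il7r was at -2.01 with probe sets averaged. Over all 8 alternatives Lef1 ran from -1.38 to -0.28, Il7r from -2.01 to -0.50, Dapl1 from -1.39 to -0.36 and Cd44 from 1.10 to 2.22. The lowest signals named, such as those of Tle2 and the second Ikzf1 probe set, lie near the floor and carry little weight.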

Other observations

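Dimmer probe sets did not in general give larger differences on these arrays. With the measured probe sets cut by mean signal into 4 equal bins, from dimmest to brightest, the median absolute difference was 0.40, 0.43, 0.38 and 0.38. Of the 2 brightest probe sets of a gene, the dimmer had the larger absolute difference in 52.8% of 4657 genes, and the median gap between them was 0.28. Among the genes described here, 1 (Il7r) had a wider gap than that median, and the gaps of Lef1, Satb1, Id2 and Cd44 were narrower.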
